A study of Mus musculus with 6 samples.

Results

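The 36 genes described here are markers of the subfields of the mouse hippocampus, chosen by name with earlier results of these data known. They are 14 markers of dentate gyrus granule cells, 6 of CA1, 4 of CA3, 5 of CA2 and 7 of ventral pyramidal cells. Each of the 36 symbols matched 1 of the 56941 Ensembl identifiers in the count table, and all 36 were among the 19354 genes with enough counts to be tested. They were measured by poly(A) RNA sequencing of ventral hippocampus from 6 mice, 3 labelled NEGR1_overexpression and 3 labelled NEGR1_control. NEGR1 is a membrane-anchored adhesion protein that shapes neurite growth, and the study asked how its overexpression relates to memory and to anxiety- and depression-like behaviour. The sources used here do not state the means of overexpression, what the control mice received, or the strain, age and sex of the mice. Samples are called overexpression 1 to 3 and control 1 to 3 after the replicate numbers in the labels. Levels are CPM, counts scaled to a common library size with TMM factors, which correct for library composition, and errors are SD over the 3 libraries of a group. Fold changes are overexpression over control, and the threshold for a call was 0.05 on p-values adjusted over every gene tested.

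The hippocampus passes information from the dentate gyrus to CA3 and on to CA1, and CA2 lies between CA3 and CA1. Granule cells of the dentate gyrus send mossy fibres to CA3, CA3 pyramidal cells send Schaffer collaterals to CA1, and CA2 is known for a part in social memory. Each field has its own set of expressed genes, and pyramidal genes also differ along the axis from the dorsal to the ventral pole, the pole tied to emotional behaviour. In a bulk sample a marker's level depends on how much of its field is in the tissue piece, and fewer cells of a type and less RNA per cell cannot be told apart.

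The libraries held 30726110 to 38108394 counts. Negr1, the gene named in the design, had 185, 199 and 195 CPM in the overexpression libraries, against 181, 168 and 180 CPM in the control libraries, and its log2 fold change of 0.13 did not pass edgeR's test (adjusted p = 0.488). Across all genes 9 passed, or 0.0465%. Overexpression 1 stood apart in markers of the choroid plexus, a secretory epithelium beside the hippocampus: the summed level of 8 such genes was 735 CPM there, 49.3 and 70.2 CPM in the other overexpression libraries, and 25.7 to 50.2 CPM in control libraries. All 8 had a fold above 1, with a median log2 value of 2.57, and of 0.63 without overexpression 1. The edgeR fit called 0 of them. DESeq2 called 2 higher, beside 56 of 19354 genes, and edgeR without overexpression 1 called 1, beside 45 of 19838.

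In these tissue pieces 0 of the 36 subfield markers passed the test, where 0.0465% of all genes did (0.0258% as higher and 0.0207% as lower). DESeq2 and limma also called 0 of them. By list, the largest spread was that of the dentate markers within the overexpression group (median SD of log2 CPM 0.44, against 0.13 in controls). The SD was larger in overexpression for 4 of 6 CA1 and 4 of 5 CA2 markers. It was larger there for only 0 of 4 CA3 and 1 of 7 ventral pyramidal markers. As a list mean, dentate markers were low in overexpression 1 and high in overexpression 2 and 3, with the control libraries between. Single genes did not all follow: overexpression 1 was the lowest library for 9 of the 14, and for Ahcyl2 it lay above every control library. Without overexpression 1, 4 dentate markers (C1ql3, Stxbp6, Calb1 and Glis3) passed the test as higher, against 0.318% of all genes called in either direction and 0.227% as higher in that fit. Leaving out the library where the dentate list was lowest raises these folds by itself, so the 4 calls are no separate support for a group difference. At an unadjusted p under 0.05 there were 10 markers in edgeR's test, 27.8% of the 36, beside 9.24% of all genes tested. The smallest adjusted p-values of the 36 were 0.267 for Pcp4 and 0.269 for Etv1. With no filter on low counts, 5 markers (Nr2f2, Pdzd2, Coch, Pcp4 and Etv1) passed, with adjusted p-values of 0.0146 to 0.0349, beside 0.853% of the 35633 genes then tested.

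**Figure D1:**
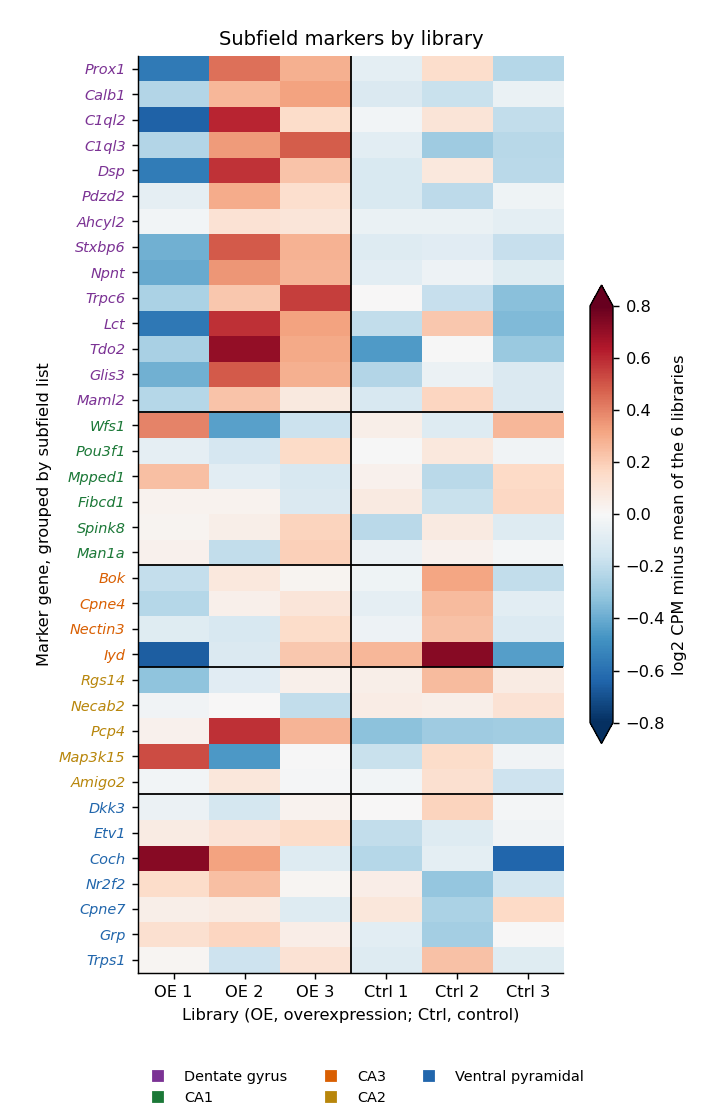
Level of the 36 subfield markers (rows, coloured by subfield list) in the 6 libraries (columns), as log2 CPM minus the gene's mean over the 6 libraries; red is above and blue below that mean. The dentate rows are mostly blue in overexpression 1 and red in overexpression 2 and 3, and the 4 CA3 rows are highest in control 2.

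The promoters of 5 markers that the results turn on are printed here from RefSeq (GRCm38.p6) as 300-base windows around the start site, mostly upstream of it, on the gene's own strand. They are C1ql3 (chr2:13010815-13011114, minus strand), Stxbp6 (chr12:45074434-45074733, minus strand) and Glis3 (chr19:28680028-28680327, minus strand), dentate markers that passed without overexpression 1, and Wfs1 (chr5:36988933-36989232, minus strand), a CA1 marker whose libraries ranked in the reverse order of the dentate list mean. Pcp4 (chr16:96467356-96467655, plus strand) is shown as the marker with the smallest p in the 6 libraries. Capitals mark matches, on either strand, to the E-box forms CAGCTG and CAGATG bound by basic helix-loop-helix factors, the half-site TGACG of the cyclic AMP response element, and the GC box GGGCGG.
C1ql3: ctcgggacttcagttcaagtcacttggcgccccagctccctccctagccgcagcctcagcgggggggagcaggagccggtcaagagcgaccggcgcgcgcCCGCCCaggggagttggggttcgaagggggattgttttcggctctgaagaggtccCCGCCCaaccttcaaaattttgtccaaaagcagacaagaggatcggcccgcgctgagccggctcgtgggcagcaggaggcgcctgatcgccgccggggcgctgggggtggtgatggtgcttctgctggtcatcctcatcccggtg
Stxbp6: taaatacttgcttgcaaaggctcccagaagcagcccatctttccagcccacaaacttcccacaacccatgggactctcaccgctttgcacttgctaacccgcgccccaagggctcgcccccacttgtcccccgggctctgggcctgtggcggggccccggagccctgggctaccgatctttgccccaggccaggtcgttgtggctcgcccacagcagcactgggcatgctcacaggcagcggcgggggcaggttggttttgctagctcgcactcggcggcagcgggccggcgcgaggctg
Glis3: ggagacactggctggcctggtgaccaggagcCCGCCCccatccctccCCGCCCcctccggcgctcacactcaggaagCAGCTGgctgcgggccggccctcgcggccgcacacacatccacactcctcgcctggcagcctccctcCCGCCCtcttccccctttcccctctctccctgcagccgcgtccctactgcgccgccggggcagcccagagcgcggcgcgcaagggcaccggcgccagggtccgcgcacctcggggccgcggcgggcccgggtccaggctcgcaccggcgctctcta
Wfs1: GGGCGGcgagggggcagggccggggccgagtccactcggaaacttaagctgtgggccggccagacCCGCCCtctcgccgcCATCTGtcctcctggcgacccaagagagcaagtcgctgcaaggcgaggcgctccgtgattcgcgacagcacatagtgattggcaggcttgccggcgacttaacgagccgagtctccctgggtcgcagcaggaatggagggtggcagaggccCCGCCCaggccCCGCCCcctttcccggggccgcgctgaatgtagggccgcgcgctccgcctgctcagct
Pcp4: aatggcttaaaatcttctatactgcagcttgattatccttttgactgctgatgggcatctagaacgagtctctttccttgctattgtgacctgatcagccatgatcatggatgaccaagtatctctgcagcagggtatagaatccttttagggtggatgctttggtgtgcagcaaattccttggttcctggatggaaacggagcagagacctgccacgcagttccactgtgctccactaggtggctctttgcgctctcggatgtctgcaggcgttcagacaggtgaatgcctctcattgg
Capitals show GC boxes in C1ql3, Glis3 and Wfs1, a CAGCTG in Glis3 and a CAGATG, read on the other strand, in Wfs1, and 0 matches in Stxbp6 and Pcp4. Promoters were found for 27 of the 36 markers, in 35 windows of this length. The GC box was in 57.1% of these windows and in 35.7% of all 32851 promoter windows, CAGCTG in 2.86% and 16.3%, CAGATG in 14.3% and 17.1%, and TGACG in 20% and 20.8%. Among the 18 dentate windows CAGCTG was in 1 (5.56%) and CAGATG in 2 (11.1%). The window with CAGCTG is that of Glis3, printed above, and no other marker window had it. These matches describe the letters only, and a missing match says only that the letters are not in the window.

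Among the dentate markers with a role in gene control, Prox1 encodes the homeobox factor that keeps granule cell identity. Prox1 had 68.2, 137 and 123 CPM in the overexpression libraries, against 95.6, 112 and 86.4 CPM in the control libraries. Overexpression 1 was the lowest of the 6 and overexpression 2 the highest, so the groups overlapped. Glis3, a zinc finger transcription factor, had 13.1, 24.0 and 20.9 CPM in overexpression libraries, against 14.5, 16.5 and 15.8 CPM in controls. Maml2, a coactivator of Notch signalling, had 26.0, 35.8 and 32.2 CPM in overexpression libraries, against 28.0, 34.4 and 28.1 CPM in controls. For all 3 genes overexpression 1 lay below every control library and overexpression 2 above every one. Their log2 fold changes were 0.16 ± 0.31 (SE), 0.31 ± 0.21 and 0.05 ± 0.12, with edgeR adjusted p-values of 0.918, 0.717 and 0.932.

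C1ql2 and C1ql3 encode secreted C1q-like proteins found at mossy fibre synapses. C1ql2 had 23.4, 55.8 and 40.6 CPM in the overexpression libraries, against 35.97, 39.4 and 32.0 CPM in the control libraries. C1ql3 had 39.5, 59.0 and 65.1 CPM in overexpression libraries, against 44.0, 38.3 and 39.9 CPM in controls. Overexpression 2 and 3 lay above every control library for both genes, and overexpression 1 was the lowest library for C1ql2 and second lowest for C1ql3. The fold was 1.12 for C1ql2 (95% interval 0.574 to 2.17) and 1.34 for C1ql3 (0.950 to 1.89), with edgeR adjusted p-values of 0.932 and 0.600. Stxbp6, which encodes the SNARE-binding protein amisyn, had 60.6, 111 and 95.7 CPM in overexpression libraries, against 73.5, 74.3 and 69.4 CPM in controls. C1ql3, with 9758 counts in the 6 libraries, overlaps the opposite-strand gene Gm37824, which had 1041, and reads of the pair may not be fully separated. The control libraries of Stxbp6 agreed within 2.59 CPM (SD), where the SD over overexpression libraries was 25.9 CPM.

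Calb1 encodes calbindin, a calcium buffer of granule cells and of some CA1 and inhibitory cells. Calb1 had 94.3, 133 and 139 CPM in overexpression libraries, against 102, 97.8 and 107 CPM in control libraries. Trpc6, a cation channel, had 17.7, 24.6 and 30.96 CPM in overexpression libraries, against 21.2, 18.6 and 16.7 CPM in controls. Pdzd2, a PDZ domain protein, had 70.8, 91.3 and 81.3 CPM in overexpression libraries, against 68.3, 64.3 and 72.6 CPM in controls. For these 3 genes overexpression 2 and 3 were the 2 highest libraries, while overexpression 1 lay below all controls for Calb1 and among them for Trpc6 and Pdzd2. Ahcyl2, related to the IP3-receptor-binding protein IRBIT, had 258, 284 and 279.5 CPM in overexpression libraries, against 252, 252 and 248 CPM in controls. Ahcyl2 was the 1 dentate marker whose groups did not overlap, with a fold of 1.09 (95% interval 1.01 to 1.18; edgeR adjusted p = 0.488). Groups did not overlap for 6 of the 36 markers in all, or 16.7%, beside 15.1% of all genes tested. In 4 of them (Ahcyl2, Pcp4, Etv1 and Grp) overexpression was higher, beside 7.07% of all genes, and in 2 (Rgs14 and Necab2) lower, beside 8.07%.

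The remaining dentate markers are structural or metabolic. Dsp, the desmosome protein desmoplakin, had 26.9, 59.2 and 46.5 CPM in overexpression libraries, against 36.5, 42.2 and 34.2 CPM in controls. Npnt, the matrix protein nephronectin, had 16.7, 28.3 and 26.7 CPM in overexpression libraries, against 20.9, 21.6 and 20.7 CPM in controls. In both genes overexpression 1 was lowest and overexpression 2 highest. Lct, the disaccharidase lactase, had 12.8, 28.7 and 23.9 CPM in overexpression libraries, against 16.6, 22.2 and 15.0 CPM in controls. Tdo2, which opens the kynurenine path of tryptophan breakdown, had 2.42, 4.74 and 3.58 CPM in overexpression libraries, against 2.12, 2.90 and 2.36 CPM in controls. Both genes were highest in overexpression 2, and Lct was lowest in overexpression 1. Tdo2 rests on 68 to 162 counts per library, and its log2 fold change was 0.54 ± 0.23 (SE; edgeR adjusted p = 0.506).

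**Figure D2:**
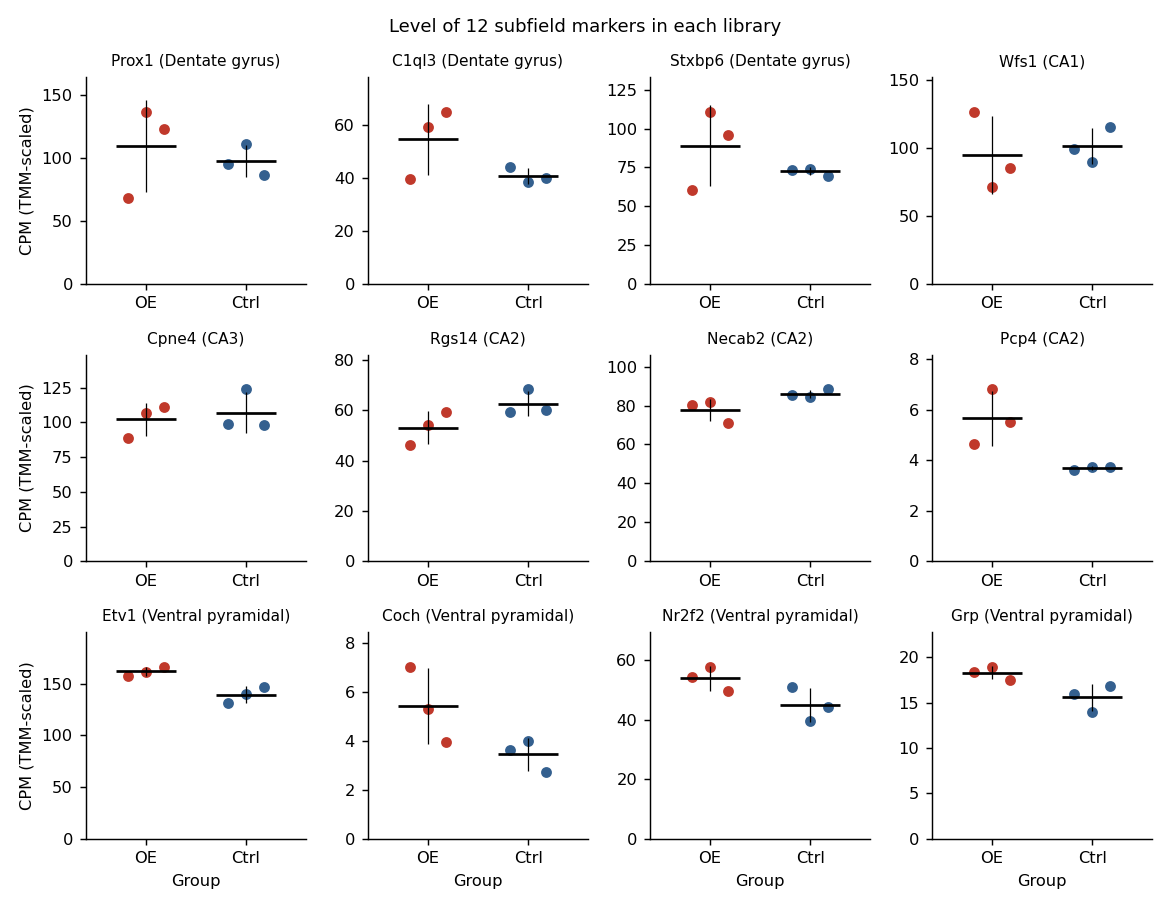
CPM of 12 markers in each library, overexpression (OE, red) left of control (Ctrl, blue), replicates 1 to 3 from left to right; bars are group means and vertical lines the SD. In Prox1, C1ql3 and Stxbp6 the first overexpression library lies apart from the other overexpression libraries, while the groups of Pcp4, Etv1, Grp, Rgs14 and Necab2 do not overlap. The 12 were chosen for display. Of all 36 markers 16.7% did not overlap, beside 15.1% of all genes tested.

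All 14 dentate markers had a fold change above 1, against 50.4% of all genes tested, and their median log2 fold change was 0.25, against 0.0015 over all genes tested. The 14 genes share the same 6 libraries and are not independent. Without overexpression 2, 10 of the 14 were above 1, with Prox1, C1ql2, Dsp and Maml2 below it, and 0 of the 14 had an unadjusted p under 0.05 in edgeR's test. Overexpression 1 was the lowest library for 9 of the 14 and overexpression 2 the highest for 11, where these libraries were lowest and highest for 15.3% and 16.3% of all genes tested. The mean log2 deviation of the list from its 6-library mean was -0.34, 0.41 and 0.27 in overexpression 1, 2 and 3, and -0.13, -0.026 and -0.18 in control 1, 2 and 3. In each of the 14 genes the SD of log2 CPM was larger in the overexpression group, where 56.7% of all genes tested had the larger SD there. The median SD was 0.44 in overexpression and 0.13 in control libraries. Over all genes tested it was 0.13 in overexpression and 0.11 in control libraries.

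Without overexpression 1, the overexpression libraries lay above every control library in 13 of the 14 dentate markers, with Maml2 the exception, against 14.1% of all genes in that fit. The log2 fold changes were then 0.61 for C1ql3 (edgeR adjusted p = 0.00324), 0.51 for Stxbp6 (adjusted p = 0.00715), 0.41 for Calb1 (adjusted p = 0.0124) and 0.52 for Glis3 (adjusted p = 0.0390). The dentate median was 0.46 without overexpression 1, and 0.10 without overexpression 2. As overexpression 1 was the library with the lowest dentate level, leaving it out had to raise these values, which describe the remaining libraries only. Overexpression 1 was also the library with the most choroid plexus RNA, and the part of tissue outside the hippocampus in these values was not tested. The 8 other dentate genes of a second list ranked the libraries in the same order, with a mean deviation of -0.35, 0.28 and 0.21 in overexpression and -0.044, 0.084 and -0.18 in control libraries. This second list was also chosen with earlier results known and is read in the same 6 libraries, so it is not an independent check. Of its 8 genes, 7 had a fold above 1 and 0 passed in the 6 libraries. Without overexpression 1, 1 of them passed as higher, beside 0.227% of all genes. The most abundant were Tiam1, an exchange factor for the GTPase Rac, at 128 ± 13.9 CPM in overexpression libraries, against 125 ± 4.44 CPM in controls, and Sema5a, a semaphorin, at 128 ± 31.4 CPM in overexpression libraries, against 112 ± 19.01 CPM in controls.

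CA1 markers showed no common direction, with 3 above and 3 below a fold of 1 and a median log2 fold change of -0.0062. Wfs1, the endoplasmic reticulum protein wolframin, had 127, 71.3 and 85.5 CPM in the overexpression libraries, against 99.4, 89.4 and 116 CPM in the control libraries. Mpped1, a metallophosphoesterase domain protein, had 261, 208 and 202 CPM in overexpression libraries, against 226, 189.8 and 246 CPM in controls. Both genes were highest in overexpression 1, the library with the lowest dentate level, and Wfs1 was lowest in overexpression 2. Fibcd1, a chitin-binding membrane receptor, had 185, 185 and 167 CPM in overexpression libraries, against 190.3, 159.8 and 203 CPM in controls. Pou3f1, a POU domain transcription factor, had 32.3, 30.99 and 37.9 CPM in overexpression libraries, against 33.9, 36.1 and 33.3 CPM in controls. In Fibcd1 the overexpression libraries lay within the range of the controls, and in Pou3f1 they reached past it on both sides.

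Spink8, a serine protease inhibitor of the Kazal type, had 10.1, 10.2 and 11.2 CPM in overexpression libraries, against 8.53, 10.4 and 9.21 CPM in controls. Man1a, a Golgi mannosidase that trims N-glycans, had 70.9, 60.6 and 79.1 CPM in overexpression libraries, against 67.0, 71.0 and 68.6 CPM in controls. The groups of both genes overlapped. Of the 6 CA1 markers 0 had an unadjusted p under 0.05, and edgeR adjusted p-values ran from 0.681 for Spink8 to 0.983 for Mpped1. The intervals of the fold were 0.857 to 1.10 for Fibcd1 and 0.871 to 1.10 for Pou3f1, but 0.579 to 1.498 for Wfs1, the widest of the 6.

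Set within a library, the balance of dentate to CA1 RNA differed more between overexpression libraries than between controls. The summed CPM of the 14 dentate markers over that of the 6 CA1 markers was 1.06, 1.90 and 1.73 in overexpression 1, 2 and 3, and 1.30, 1.502 and 1.17 in control 1, 2 and 3. The overexpression libraries thus held both the lowest ratio and the 2 highest ratios of the 6. This ratio compares sums of unequal gene sets and describes libraries only.

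**Figure D3:**
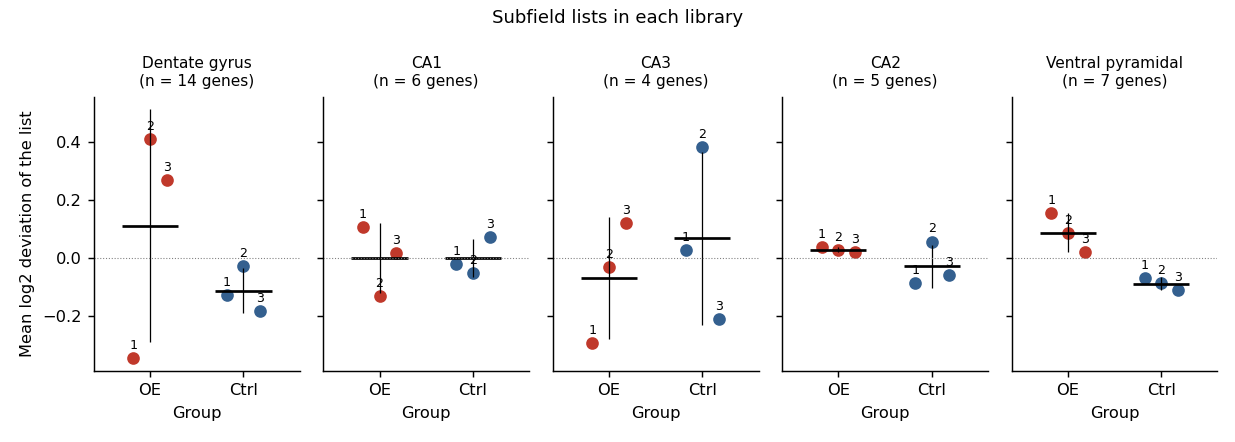
Mean log2 deviation of each subfield list in each library, overexpression (OE, red) left of control (Ctrl, blue); numbers are replicates, bars group means and vertical lines the SD. Dentate markers span -0.34 to 0.41 within the overexpression group, and CA3 markers reach 0.38 in control 2.

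All 4 CA3 markers lay below a fold of 1 (median log2 value -0.067), and control 2 was the highest library for each. Bok, a member of the BCL2 family, had 35.2, 42.7 and 40.8 CPM in the overexpression libraries, against 39.2, 50.1 and 35.1 CPM in the control libraries. Cpne4, a copine that binds membranes in the presence of calcium, had 88.9, 107 and 111 CPM in overexpression libraries, against 98.8, 124 and 98.1 CPM in controls. In both genes the groups overlapped, and the other control libraries lay within or below the overexpression range. Nectin3, an adhesion molecule of puncta adherentia, had 49.0, 47.8 and 58.0 CPM in overexpression libraries, against 51.0, 61.5 and 48.5 CPM in controls. Iyd, an iodotyrosine deiodinase, had 1.52, 2.22 and 2.80 CPM in overexpression libraries, against 2.90, 3.99 and 1.77 CPM in controls.

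Iyd was the most variable of the 4, with 51 to 150 counts per library and a log2 fold change of -0.41 ± 0.30 (SE; edgeR adjusted p = 0.716). The adjusted p-values of Bok, Cpne4 and Nectin3 were 0.917, 0.902 and 0.905. Without control 2, Bok, Cpne4 and Nectin3 had log2 fold changes of 0.091, 0.054 and 0.054, above 0, and the CA3 median was 0.054. Averaged over the 4 genes, the deviation was -0.29, -0.030 and 0.12 in overexpression 1, 2 and 3, and 0.029, 0.38 and -0.21 in control 1, 2 and 3. A second list of 5 CA3 genes had 3 members above and 2 below a fold of 1, a median of 0.0031 and 0 past the threshold. Kcnq5, a potassium channel subunit, was at 131 ± 6.83 CPM in overexpression libraries, against 139 ± 19.97 CPM in controls, and Elavl2, an RNA-binding protein, at 107 ± 6.75 CPM in overexpression libraries, against 102 ± 7.95 CPM in controls.

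Of the 5 CA2 markers 3 had groups that did not overlap, beside 15.1% of all genes, and they did not share a direction. Pcp4 was higher in overexpression libraries (beside 7.07% of all genes), and Rgs14 and Necab2 were lower (beside 8.07%). Pcp4, a small calmodulin regulator, had 4.65, 6.81 and 5.49 CPM in the overexpression libraries, against 3.61, 3.72 and 3.74 CPM in the control libraries. The fold was 1.53 (95% interval 1.21 to 1.94; edgeR unadjusted p = 0.00186, adjusted p = 0.267), with all 3 overexpression libraries above all 3 controls. Rgs14, a regulator of G protein signalling that restrains plasticity in CA2, had 46.1, 54.1 and 59.3 CPM in overexpression libraries, against 59.4, 68.5 and 60.3 CPM in controls. Necab2, a neuronal calcium-binding protein, had 80.2, 82.0 and 71.2 CPM in overexpression libraries, against 85.2, 84.6 and 88.4 CPM in controls. Overexpression 3 and control 1 all but met in Rgs14.

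The folds were 0.847 for Rgs14 (95% interval 0.741 to 0.970) and 0.904 for Necab2 (0.824 to 0.992), with edgeR adjusted p-values of 0.457 and 0.497. Amigo2, a leucine-rich repeat adhesion molecule, had 29.2, 31.5 and 29.3 CPM in overexpression libraries, against 29.1, 32.3 and 26.4 CPM in controls, which overlapped; the opposite-strand gene Pced1b overlaps it. Map3k15, a kinase of the stress-activated cascades, had 2.83, 1.43 and 1.97 CPM in overexpression libraries, against 1.74, 2.18 and 1.93 CPM in controls. Its 49 to 95 counts per library are uncertain, because exons of Pdha1, with 37849 counts in the 6 libraries, overlap it on the opposite strand and the strand setting of the counting is not given. Among 5 tested genes of a second CA2 list, 4 were below a fold of 1 and 0 passed, and their median was -0.12 on the log2 scale. Ptpn5, the phosphatase STEP, was at 109 ± 4.53 CPM in overexpression libraries, against 118 ± 2.56 CPM in controls, and Actn2, an actin crosslinker, at 19.7 ± 0.929 CPM in overexpression libraries, against 21.5 ± 0.969 CPM in controls.

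Pcp4 is also expressed outside CA2, in granule cells and in thalamus among other places. It was highest in overexpression 2 and 3, as the dentate list mean was. In overexpression 1, where the dentate mean was lowest, Pcp4 lay above every control library. Summed levels of 8 thalamus and habenula markers were 90.8, 86.2 and 104 CPM in overexpression libraries, against 82.8, 75.0 and 76.6 CPM in controls. Within the overexpression group that sum was lowest in overexpression 2, where Pcp4 was highest. Of those 8 genes 7 had a fold above 1, and edgeR called 0. DESeq2 called 1 of them higher, beside 56 of 19354 genes, and edgeR with no filter 2, beside 208 of 35633. The most abundant of the 8 were Plekhg1 and Prkcd. Plekhg1 was at 29.3 ± 4.76 CPM in overexpression libraries, against 27.7 ± 1.44 CPM in controls. Prkcd was at 16.3 ± 1.84 CPM in overexpression libraries, against 14.4 ± 0.876 CPM in controls. The lowest defining marker, Tnnt1, was at 1.11 ± 0.466 CPM in overexpression libraries, against 0.594 ± 0.369 CPM in controls. Tnnt1 had the largest fold of the 8, and its groups overlapped (edgeR adjusted p = 0.574). The part of either tissue in the level of Pcp4 was not tested.

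Ventral pyramidal markers split into 4 genes above a fold of 1 (Etv1, Coch, Nr2f2 and Grp) and 3 below it (Dkk3, Cpne7 and Trps1), with a median log2 fold change of 0.22. Etv1, an ETS family transcription factor, had 157, 162 and 166 CPM in the overexpression libraries, against 131, 139.8 and 147 CPM in the control libraries. Grp, the gastrin-releasing peptide, had 18.4, 18.98 and 17.5 CPM in overexpression libraries, against 15.9, 14.0 and 16.9 CPM in controls. Neither gene's groups overlapped. The fold of Etv1 was 1.16 (95% interval 1.07 to 1.26; edgeR unadjusted p = 0.00197, adjusted p = 0.269) and that of Grp 1.17 (1.03 to 1.34; adjusted p = 0.460).

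Nr2f2, the orphan nuclear receptor COUP-TFII, which inhibitory cells and vessels also express, had 54.2, 57.8 and 49.5 CPM in overexpression libraries, against 50.8, 39.5 and 44.3 CPM in controls. Coch, the extracellular protein cochlin, had 7.04, 5.29 and 3.94 CPM in overexpression libraries, against 3.61, 4.02 and 2.72 CPM in controls. In each gene overexpression 3 lay below the highest control library and the other overexpression libraries above it. Coch had the largest fold of the 36, at 1.56 (95% interval 1.13 to 2.15; edgeR adjusted p = 0.412), on 83 to 236 counts per library. Its highest library, overexpression 1, was also the highest in choroid plexus markers, and the bearing of that on Coch was not tested. Without overexpression 1 the log2 fold change of Coch was 0.41, against 0.64 in all 6 libraries. Nr2f2 was lowest in control 2 and highest in overexpression 2, and the summed level of 6 meningeal and fibroblast genes was 124, 122 and 96.8 CPM in overexpression 1, 2 and 3 and 111, 69.4 and 83.3 CPM in control 1, 2 and 3; their part in Nr2f2 was not tested.

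Of the other ventral markers, Cpne7 and Dkk3 had the highest CPM of the 36. Dkk3, a secreted Dickkopf family protein, had 375, 350.3 and 394 CPM in overexpression libraries, against 387, 437 and 382 CPM in controls. Cpne7, a second copine, had 443, 449 and 399 CPM in overexpression libraries, against 456, 359 and 478 CPM in controls. Trps1, a GATA-type repressor, had 47.1, 41.5 and 50.4 CPM in overexpression libraries, against 43.4, 54.8 and 43.6 CPM in controls. The groups of all 3 overlapped, and control 2 was the highest library for Dkk3 and Trps1 and the lowest for Cpne7. Their edgeR adjusted p-values were 0.634, 0.997 and 0.957. The mean deviation of the 7 genes was 0.16, 0.085 and 0.021 in overexpression 1, 2 and 3, and -0.067, -0.086 and -0.11 in control 1, 2 and 3. The summed CPM, which Cpne7 and Dkk3 dominate, overlapped, at 1102, 1084 and 1080.4 in overexpression and 1087, 1049 and 1114 in control libraries.

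**Figure D4:**
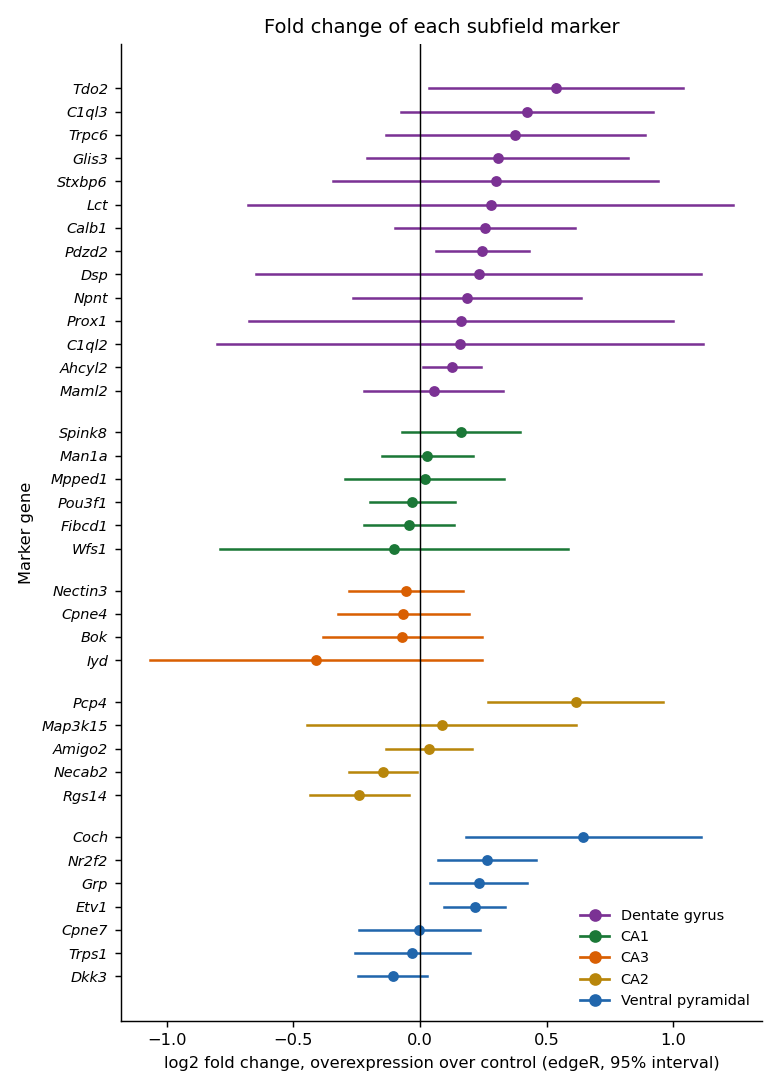
log2 fold change of each marker, overexpression over control, with its 95% interval from edgeR, grouped by subfield list. All 14 dentate points lie above 0, with intervals from narrow (Ahcyl2, 1.01 to 1.18 as a fold) to wide (Lct, 0.624 to 2.36), and 10 of the 36 intervals leave out 0.

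Per kilobase of exon, the level of the markers ranged from 0.464 CPM per kb for Map3k15 to 115 CPM per kb for Dkk3, as means over the 6 libraries. The next highest were Cpne7 at 81.8, Mpped1 at 51.7, Necab2 at 39.1 and Fibcd1 at 38.2 CPM per kb. The median was 4.57 CPM per kb for the 14 dentate markers, led by Calb1 at 23.1, and 18.996 for the 6 CA1 markers. It was 11.6 for CA3, 9.36 for CA2 and 11.3 for ventral pyramidal markers. These are levels of single genes and give no share of cells. Pooled over both groups, within-group spread was wider in dentate markers, with a median of 0.32 in log2 CPM, than in the other lists. It was 0.14 for CA1, 0.197 for CA3, 0.15 for CA2 and 0.15 for ventral pyramidal markers, beside 0.13 over all genes tested. In control libraries alone the dentate median SD was 0.13. That was below CA1 (0.16), CA3 (0.23) and ventral pyramidal markers (0.18), and above CA2 (0.11).

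All 36 subfield genes were detected, with at least 49 counts in each library, and genes shared by pyramidal cells were abundant. No other tissue was compared, so this does not test the tissue label. Camk2a, a kinase of excitatory synapses, was at 4013 ± 136 CPM in overexpression libraries, against 4237 ± 168 CPM in controls, and Slc17a7, the vesicular glutamate transporter, at 1275 ± 75.1 CPM in overexpression libraries, against 1393 ± 66.5 CPM in controls. Of 6 such genes 5 were below a fold of 1 and 0 passed (median -0.10 on the log2 scale). The summed level of 5 subiculum markers was 349, 236 and 270.2 CPM in overexpression 1, 2 and 3 and 299, 257 and 303 CPM in control libraries. It was thus highest in the library where Wfs1 was highest and lowest where Wfs1 was lowest. Of 4 mossy cell genes 3 were above a fold of 1 and 0 passed, with Ajap1, an adherens junction protein, at 36.4 ± 2.80 CPM in overexpression libraries, against 37.9 ± 2.31 CPM in controls, and Calb2, calretinin, at 30.4 ± 5.71 CPM in overexpression libraries, against 24.9 ± 4.05 CPM in controls.

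The summed level of 8 myelin genes was 3007.5 to 3549.6 CPM in overexpression libraries, against 3772 to 4749 CPM in controls, with all 8 below a fold of 1. In the edgeR fit 0 of the 8 passed, while DESeq2 called 5 lower, as did edgeR without control 1, and edgeR with no filter called 7. Over all genes, DESeq2 called 51 of 19354 lower, edgeR without control 1 called 23 of 19880, and edgeR with no filter 96 of 35633. The 6 meningeal and fibroblast genes were all above a fold of 1. Of these 6, edgeR called 0, DESeq2 called 2 higher, and edgeR called 1 with the replicate block, 2 without control 1 and 4 with no filter. Over all genes, DESeq2 called 56 higher, and edgeR 21 with the replicate block, 16 without control 1 and 208 with no filter. Sums over 8 interneuron genes were 619 to 724 CPM in overexpression libraries, against 649 to 672 CPM in controls, and over 6 astrocyte genes 5463 to 5983 CPM in overexpression libraries, against 5405 to 6027 CPM in controls. The astrocyte sum is mostly Slc1a2, a glutamate transporter, at 4264 ± 216 CPM in overexpression libraries, against 4099 ± 254 CPM in controls. Of the 6 astrocyte genes 2 were above and 4 below a fold of 1, with a median of -0.053 on the log2 scale. Gfap, an intermediate filament of astrocytes, is named for its change, the largest of the 6. It was lower in overexpression libraries without overlap, beside 8.07% of all genes. Gfap was at 356 ± 39.9 CPM in overexpression libraries, against 508 ± 37.2 CPM in controls (log2 fold change -0.51, edgeR adjusted p = 0.0862). In edgeR's test 1 of the 6 had an unadjusted p under 0.05. DESeq2 called 1 of the 6 astrocyte genes lower, as did edgeR with the replicate block, with no filter, without overexpression 3 and without control 1. Over all genes, 5 were called lower with the replicate block and 5 without overexpression 3. The sums over 6 cortex layer genes were 136 to 154 CPM in overexpression libraries, against 133 to 139 CPM in controls. Amygdala genes, of which 3 of 4 were tested, summed to 189 to 213 CPM in overexpression libraries, against 173 to 179 CPM in controls. The sums of 5 microglia and 5 endothelial genes overlapped between groups. The part of these lists in the levels of the subfield markers was not tested.

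**Figure D5:**
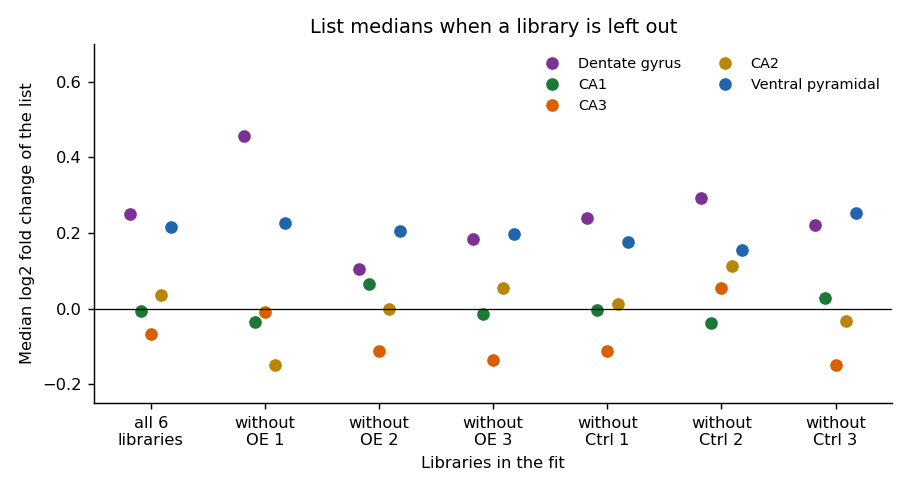
Median log2 fold change of each subfield list in all 6 libraries and when each library was left out. The dentate median runs from 0.10 without overexpression 2 to 0.46 without overexpression 1, and the CA3 median is above 0 only without control 2.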

How the data were processed

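RNA selected with poly(T) from 3 overexpression and 3 control ventral hippocampi was made into strand-specific dUTP libraries, per the labels' protocols. The authors deposited raw counts, whole numbers for each Ensembl gene in 1 column per library. The submitters' processing notes name the builds mm10 and GRCm39 and the tools featureCounts 2.0.3, STAR 2.7.10 and Trimmomatic 0.36, without saying which step used what. Annotation and strand setting were not stated, so antisense reads may enter a count.

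Symbols and exon lengths came from GENCODE vM21 (51948 of 56941 identifiers had a symbol). Rows without a symbol held 0.264 to 0.348% of counts. Testing used edgeR 4.0.16 (quasi-likelihood, robust; R 4.3.3) with TMM factors, filterByExpr and group as the only term, and Benjamini-Hochberg adjustment over 19354 genes. Standard errors came from the F statistic, and deviations from log2 CPM with a prior count of 0.5. All pairs of libraries differed beyond sampling noise (chi-square per degree of freedom 4.28 to 12.9). Replicates are separate mice per the series' design. Alternatives were RLE and upper quartile factors, DESeq2 1.42.0, limma 3.58.1 (voom with sample weights), no filter, at least 1 CPM in 3 libraries, a replicate block, and each library left out. The members and lists were chosen with earlier results of these data known. Every marker is named. Of the other lists only some genes are named, and the rest enter as sums or counts.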

Additional observations from a re-analysis of the deposited data

How the results depend on the processing

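Over all genes, 9 passed in the edgeR fit, 107 with DESeq2, 304 with no filter, 5 with at least 1 CPM in 3 libraries and 2 to 63 with 1 library left out. The highest counts were 63 without overexpression 1 and 39 without control 1. Markers past the threshold numbered 5 with no filter and 0 to 4 with 1 library left out. Those at an unadjusted p under 0.05 numbered 5 to 19, and those whose groups do not overlap 7 to 19, with 1 library left out. Without overexpression 1, 52.8% of markers did not overlap, against 29.2% of all genes. With any other library left out it was 19.4 to 33.3% of markers, against 23.4 to 26.6% of all genes, and without overexpression 2 or control 1 or 3 the markers' share was below that of all genes. The shares with an unadjusted p under 0.05 were 52.8% of markers, against 12% of all genes, without overexpression 1, and 13.9 to 22.2%, against 6.41 to 9.43%, without any other. DESeq2 called 0 markers and gave 11 with an unadjusted p under 0.05. The median log2 fold changes with 1 library left out ran from 0.10 to 0.46 for dentate, -0.038 to 0.065 for CA1, -0.15 to 0.054 for CA3, -0.15 to 0.11 for CA2 and 0.16 to 0.25 for ventral pyramidal markers. The CA2 median was -0.15 without overexpression 1 and -0.033 without control 3. The causes were not tested.

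With the replicate block 26 genes and 0 markers passed, and 10 markers had an unadjusted p under 0.05. Same-number libraries correlated at 0.0136 to 0.0183 in their deviations, so the numbers were not taken as pairs. Each of the 6 libraries correlated best with its own number, but by small margins: overexpression 1 gave 0.0136 with control 1 and 0.0104 with control 3. Deviations were centred within each group, so these matches are not independent and do not show pairing.

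Direction turned in 33 of 468 single-marker values, over 16 markers, and never in the other 20. With limma the log2 fold change was -0.030 for Mpped1, 0.0015 for Bok and 0.0083 for Trps1. For Cpne7 it was 0.0073 with upper quartile factors, 0.0034 with no filter, 0.0020 with at least 1 CPM in 3 libraries and 0.0061 with the replicate block. With 1 library left out it ran from -0.032 to 0.41 for Prox1, -0.16 to 0.43 for C1ql2, -0.035 to 0.49 for Dsp, -0.052 to 0.17 for Maml2, -0.37 to 0.063 for Wfs1, -0.12 to 0.027 for Pou3f1, -0.11 to 0.10 for Mpped1, -0.14 to 0.031 for Fibcd1. It ran from -0.065 to 0.12 for Man1a, -0.18 to 0.091 for Bok, -0.13 to 0.054 for Cpne4, -0.15 to 0.054 for Nectin3, -0.20 to 0.29 for Map3k15, -0.033 to 0.11 for Amigo2, -0.12 to 0.078 for Cpne7, -0.093 to 0.091 for Trps1. The lowest marker counts, 49 to 95 for Map3k15, and 3 mice a group limit precision.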
